A study of Mus musculus with 7 samples.

Results

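The genes described here are 37 mouse genes of the unfolded protein response, out of 21911 protein-coding genes of the GENCODE annotation of build mm10. They were chosen by symbol from general knowledge of the pathway and not by any measured value, but with earlier results of these data known. They comprise 13 genes placed in the Ern1-Xbp1 branch, 16 in the Atf6 branch and 8 in the Eif2ak3-Atf4 branch. Many targets respond to more than 1 branch, so the division is a convention. Chromatin accessibility was measured by ATAC-Seq, an assay that sequences the fragments a transposase frees from open chromatin, in LSK cells. These are the lineage-negative Sca-1+ c-Kit+ cells of the bone marrow, where the stem and early progenitor cells of the blood are found. Each library came from 50000 sorted cells of adult C57BL/6 offspring. The 3 Ctrl libraries came from offspring of normal pregnancies. The 4 WTAkita libraries came from wild-type offspring of diabetic dams that were heterozygous for the Akita mutation of Ins2, which makes insulin misfold. The offspring themselves did not carry that allele. In the study's breeding scheme Akita and wild-type females ate a high-fat diet (60 kcal% fat) for 3 weeks before mating with C57BL/6 males, and the offspring stayed on a diet of 13 kcal% fat until analysis at 8 to 12 weeks. WTAkita therefore stands for exposure before birth and not for a mutation in the cells assayed. The sources used here do not say how many mice entered a library, and the spread that the p-values rest on may therefore be technical.

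The endoplasmic reticulum folds secreted and membrane proteins, and unfolded chains there trigger 3 sensors in its membrane. Ern1 (IRE1α) splices the Xbp1 mRNA so that it encodes an active transcription factor, Atf6 is cut in the Golgi to release one, and Eif2ak3 (PERK) phosphorylates eIF2α, which slows translation but favors Atf4. Together these factors induce chaperones, degradation machinery, amino acid synthesis and, under lasting stress, the proapoptotic factor Ddit3 (CHOP). In hematopoietic stem cells the pathway is known as a guard of protein quality under stress.

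The values are MACS2 fold enrichments, the number of tags piled up at a peak's summit over the local background in the same library, each plus a pseudocount of 1. Estimated sequenced tags ranged from 37.6 to 53.1 per library, in units of 1000000, and did not follow the groups. The median fold enrichment over all peaks ranged from 5.25 to 6.59, and it was lowest in WTAkita 1 (5.25), WTAkita 2 (5.78) and Ctrl 1 (5.79). The promoters of 12 of 12 LSK markers, Kit and Ly6a among them, carried a peak in all 7 libraries. Of the markers of other cells, 3 of 5 B cell genes, 3 of 5 T cell genes, 4 of 5 erythroid genes, 1 of 5 granulocyte and monocyte genes and 5 of 5 stromal and endothelial genes did so as well. Ms4a1, Cd8a, Slc4a1 and Camp had a promoter peak in no library. None of the 28 markers with a peak in every library differed between the groups after adjustment, and the other 9 were not tested. Of those, Cd3g, a T cell gene, had a weak promoter peak in 1 of 3 Ctrl and 4 of 4 WTAkita libraries, at fold enrichments of 3.1 to 4.18. Cd79a, a B cell gene, leaned the other way, with a peak in 3 of 3 Ctrl and 2 of 4 WTAkita libraries. So did Elane, in 2 of 3 and 1 of 4. S100a8 had a peak in 1 library of each group, and Ly6g in 1 WTAkita library only. In a bulk library, accessibility in fewer cells and lower accessibility per cell cannot be told apart.

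A peak lay within 1000 bp of an annotated transcript start of 37 of the 37 genes in every library, Ctrl and WTAkita alike. Over all protein-coding genes the same held for 15808 of 21911 (72.1%). No member was therefore lost to the requirement of a peak in every library, and the pathway's sensors, transcription factors, chaperones and stress targets were all in open promoter chromatin in both groups.

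Matches to the known stress elements under these peaks are shown first, because the branches are known to act through them. The endoplasmic reticulum stress element (ERSE) is the site through which Atf6, with the CCAAT factor NF-Y, and Xbp1 act, and was searched as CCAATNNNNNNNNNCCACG on both strands. A shorter form, ERSE-II, was searched as ATTGGNCCACG, the core of the unfolded protein response element (UPRE) as TGACGTGG, and the C/EBP-ATF response element (CARE), the site of Atf4, as TGATGNAA. The ERSE, ERSE-II and UPRE letters share the half-site CCACG, but no match printed below overlaps a match to another of these motifs. RefSeq promoter windows, from 250 bases before to 50 after the start of a gene in mm10, were at hand for 31 of the 37 members; Atf6, Hyou1, Manf, Sec61a1, Derl1 and Ppp1r15b had none.

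The ERSE occurred in 8 of the 31 windows, against 28 of 16522 genes overall (0.169%). Of those 8, 6 were Atf6 branch genes and 2 were Xbp1 branch genes, and none belonged to the Atf4 branch. Target lists of the pathway were built in part on such elements, so this share is a description of the gene list. The 9 matches are printed 5′ to 3′ on the strand of the gene, with the element in capitals and 15 bases on each side. They run from the master chaperone BiP (Hspa5) through the chaperones Hsp90b1, Calr and Canx and the oxidoreductase Pdia6 to Creld2, the cochaperone Dnajc3 and the ubiquitin ligase Syvn1, and each lay inside the promoter peak in 7 of 7 libraries.
Hspa5, chr2:34772010-34772058, plus strand: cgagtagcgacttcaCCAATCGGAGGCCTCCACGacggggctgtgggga
Hsp90b1, distal, chr10:86705623-86705671, minus strand: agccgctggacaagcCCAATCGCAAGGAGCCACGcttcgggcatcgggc
Hsp90b1, proximal, chr10:86705518-86705566, minus strand: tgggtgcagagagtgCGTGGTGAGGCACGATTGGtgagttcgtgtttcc
Calr, chr8:84847060-84847108, minus strand: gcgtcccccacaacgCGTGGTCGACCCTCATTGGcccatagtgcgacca
Canx, chr11:50325785-50325833, minus strand: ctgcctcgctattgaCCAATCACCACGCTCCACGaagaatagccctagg
Pdia6, chr12:17266476-17266524, plus strand: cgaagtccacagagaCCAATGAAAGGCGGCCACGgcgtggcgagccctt
Creld2, chr15:88819505-88819553, plus strand: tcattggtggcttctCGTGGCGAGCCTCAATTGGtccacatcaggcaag
Dnajc3, chr14:118937812-118937860, plus strand: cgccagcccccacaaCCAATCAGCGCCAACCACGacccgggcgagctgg
Syvn1, chr19:6046517-6046565, plus strand: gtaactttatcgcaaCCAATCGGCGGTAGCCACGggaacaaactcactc

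The element points along the gene in Hspa5, distal Hsp90b1, Canx, Pdia6, Dnajc3 and Syvn1, and against it in proximal Hsp90b1, Calr and Creld2. Its center lay between 203 bases (distal Hsp90b1) and 35 bases (Syvn1) before the RefSeq start. To show its setting, the 200 bases before the Hspa5 start (chr2:34771890-34772089, plus strand) read, with the match in capitals:
Hspa5 promoter: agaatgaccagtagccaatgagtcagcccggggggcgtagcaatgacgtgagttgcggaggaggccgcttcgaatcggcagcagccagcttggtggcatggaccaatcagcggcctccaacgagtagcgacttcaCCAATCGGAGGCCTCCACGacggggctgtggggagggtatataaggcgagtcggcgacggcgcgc

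The ERSE-II occurred in 2 of the 31 windows, against 0.0605% of all genes, and CARE in 4 of 31, against 3.99%. Herpud1, a membrane protein that assists degradation at the endoplasmic reticulum, carried both elements. Dnajb11, a cochaperone of BiP, carried the other ERSE-II, and Chac1 (a glutathione-degrading enzyme), Trib3 (a pseudokinase that restrains Atf4) and Asns (asparagine synthetase) carried the other CARE matches. The UPRE core was in 0 of 31, against 0.859% of all genes, and nothing follows from that for the factor.
Herpud1, ERSE-II, chr8:94386362-94386402, plus strand: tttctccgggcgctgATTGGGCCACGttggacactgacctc
Herpud1, CARE, chr8:94386302-94386339, plus strand: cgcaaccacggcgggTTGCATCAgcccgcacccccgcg
Dnajb11, ERSE-II, chr16:22857837-22857862, plus strand: atgtccccggcggcgATTGGCCCACG
Chac1, CARE, chr2:119351034-119351071, plus strand: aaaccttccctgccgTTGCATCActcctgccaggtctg
Trib3, CARE, chr2:152344039-152344061, minus strand: cagattagctcaggtTTACATCA
Asns, CARE, chr6:7693210-7693247, minus strand: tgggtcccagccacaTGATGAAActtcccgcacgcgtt

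Because annotated starts can miss the start used in these cells, the same letters were searched in 301 bp of the mm10 genome around the highest promoter summit of each library, for all 37 members and all 15808 genes with a promoter peak in every library. The ERSE lay in this window in all 7 libraries for 8 of 37 members (5 Atf6 branch, 3 Xbp1 branch, 0 Atf4 branch), against 0.114% of all genes. CARE lay there for 5 of 37, of which 4 were among the 8 Atf4 branch genes (Ddit3, Ppp1r15b, Chac1 and Asns) and the fifth was Herpud1, against 1.32% of all genes. The ERSE-II lay there for Herpud1 and Manf (0.0633% of all genes) and the UPRE core for no member in all 7 libraries (0.709%). Hyou1, however, held both an ERSE-II and a UPRE core in 6 of the 7 libraries. In Ctrl 2 its highest summit lay 9998 bases inside the gene, and neither match was in the window. Matches that the RefSeq windows had not shown were the ERSE of Xbp1 and the CARE of Ddit3. Both are printed here because they lie at factors of the pathway itself. Ppp1r15b, Manf and Hyou1 had no RefSeq window, so their matches had not been seen either. The ERSE of Hspa5 and the ERSE-II of Dnajb11 fell outside the summit window in every library.
Xbp1, ERSE, chr11:5520901-5520929, plus strand: accggCCAATCGCGGACGGCCACGaccct
Ddit3, CARE, chr10:127290477-127290514, plus strand: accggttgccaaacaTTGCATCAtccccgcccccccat

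Where the summit fell relative to the element differed between genes and was steady between libraries. Distances are summit minus element center along the gene, so that negative values lie upstream. In Chac1 the summit lay at -18 to -2 bases from the CARE, in Herpud1 at 6 to 18 and in Asns at 10 to 42. In Ddit3 it lay at 100 to 118 bases. The proximal Hsp90b1 ERSE straddled the summit, at -27 to 29 bases, whereas the summit was at -174 to -150 bases from the ERSE in Hspa5, at 131 to 139 in Calr and at -62 to -53 in Xbp1. In Trib3 alone among these genes did the summit jump, from 14 to 532 bases downstream of the CARE, because the highest of several summits in the peak was not the same in each library.

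**Figure D1:**
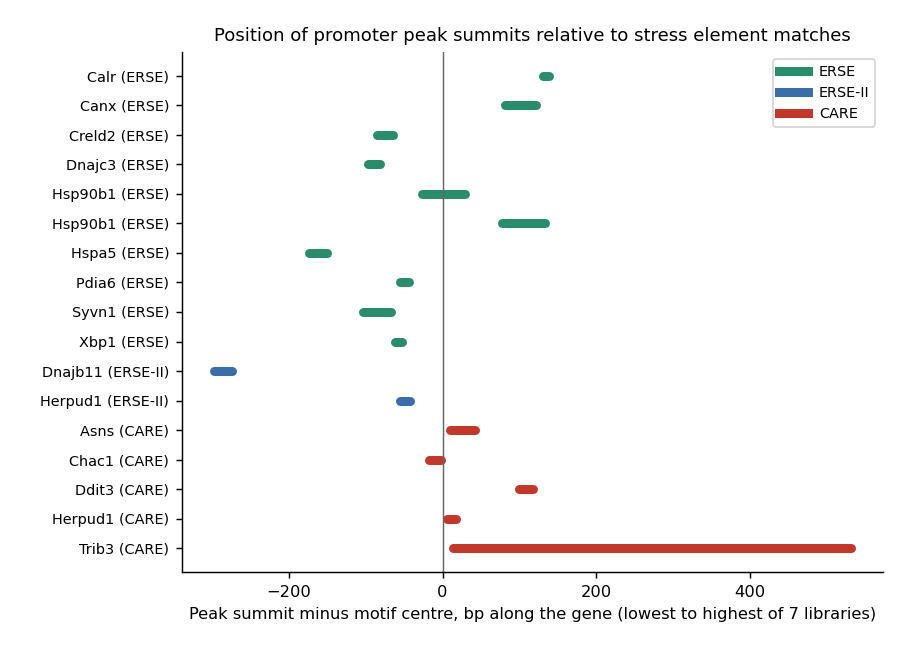
Each bar spans the lowest to the highest position, over 7 libraries, of the promoter peak summit minus the center of a stress element match, in bp along the gene, for 17 matches. Summits stood within 42 bp of the CARE in Asns, Chac1 and Herpud1, and the bar of Trib3 is the long one, from 14 to 532 bp.

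The level of each promoter was then ranked within its library among all genes with a promoter peak there, since the fold enrichment is not scaled between libraries. The median of the 37 genes' mean percentiles was 67.9, and 30 of 37 lay above the 50th percentile. The median over the genes was between 64.6 and 72.8 in single libraries, with a mean of 67.1 ± 3.3 (SD, n = 3) for the Ctrl libraries and 69.2 ± 2.9 (SD, n = 4) for the WTAkita libraries. In fold enrichment the 37 promoters had medians of 16.3 to 18.3 per library, against 12.7 to 15.3 over all promoters. By branch, the median was 70.7 for Xbp1, 69.0 for Atf6 and 59.1 for Atf4 genes. The branches were assigned by hand, and their medians are given without a test.

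**Figure D2:**
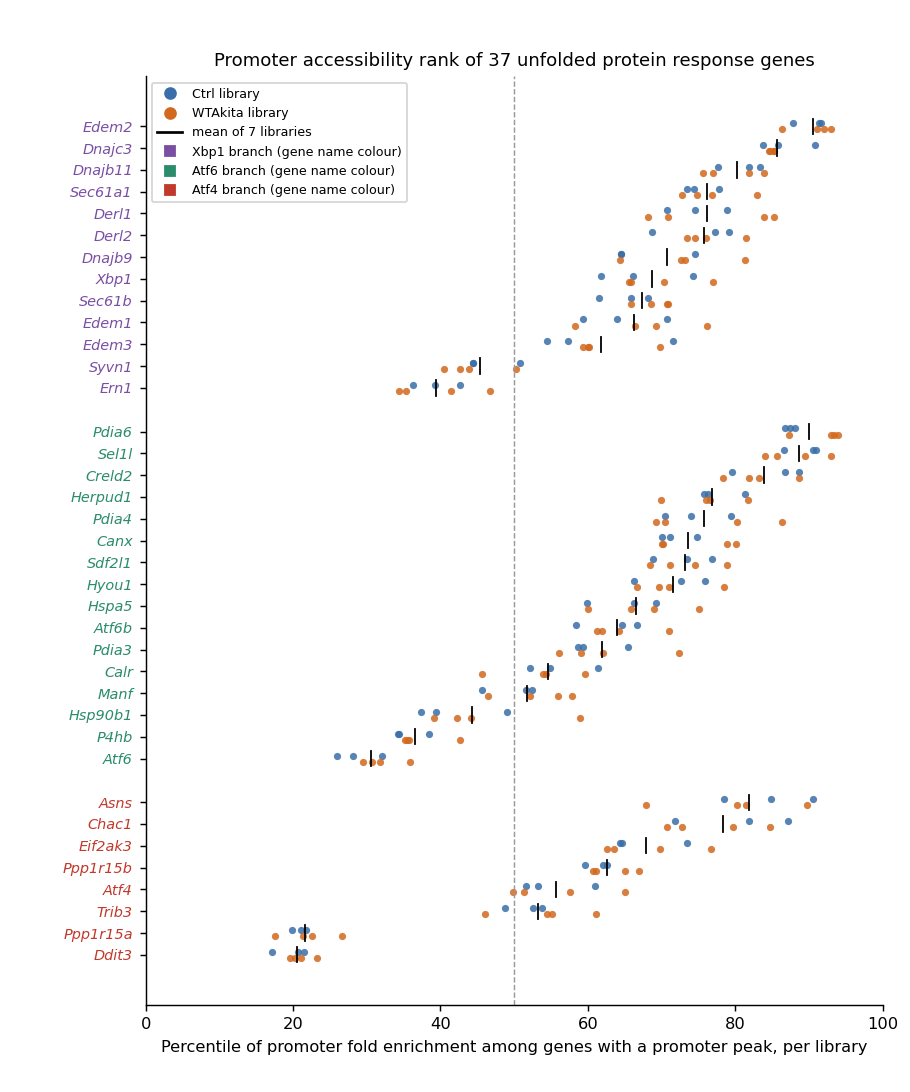
Each row is a gene, grouped by branch, and each point is its promoter's percentile in a library, Ctrl in blue and WTAkita in orange, with the mean of 7 libraries as a bar. Most genes lie to the right of the 50th percentile (30 of 37), the Ctrl and WTAkita points intermingle, and Ddit3 and Ppp1r15a stand at the left with mean percentiles of 20.5 and 21.6.

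Of the sensors, Ern1 (chr11:106394650-106487852, minus strand) had promoter fold enrichments of 11.5, 13.8 and 13 in Ctrl 1 to 3 and 10.3, 13, 13.5 and 12.7 in WTAkita 1 to 4, a mean percentile of 39.4. Atf6 (chr1:170704674-170867771, minus strand) had 10.8, 11 and 10.5 in Ctrl and 10.5, 10.1, 11.5 and 12 in WTAkita, a mean percentile of 30.6. Eif2ak3 (chr6:70844515-70905245, plus strand) had 17.7, 17.7 and 17.4 in Ctrl and 16.9, 16.7, 17.5 and 17.6 in WTAkita, a mean percentile of 67.9. Of the 3 sensors, then, Eif2ak3 had the higher promoter rank by fold enrichment, with every library at or above 62.6. Ern1 (34.4 to 46.7) and Atf6 (26.0 to 35.9) stayed below the 50th percentile of fold enrichment in every library. The groups overlapped for each sensor. Atf6b (chr17:34647146-34655074, plus strand), a paralog of Atf6, had 16.5, 16.5 and 17.5 in Ctrl and 16, 15.8, 17.1 and 17.3 in WTAkita, a mean percentile of 64.0.

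The Atf6 value has a particular origin. In 6 of the 7 libraries it came from a peak whose summit lay 826 to 848 bases upstream of the gene's 5′ end, and only in WTAkita 3 from the peak 3 bases upstream of that end. Atf6 was also the member with the lowest tag pileup, 2.19 to 3.66 tags per 1000000 sequenced tags at its highest summit (mean percentile 27.2).

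Of the transcription factors at the ends of the other 2 branches, Xbp1 (chr11:5520659-5525893, plus strand) had promoter fold enrichments of 15.7, 17.9 and 19.3 in Ctrl and 17.0, 16, 18.7 and 18.2 in WTAkita, a mean percentile of 68.7. Atf4 (chr15:80255184-80257541, plus strand) had 15.5, 15.7 and 15.2 in Ctrl and 15, 14.6, 15.3 and 15.3 in WTAkita, a mean percentile of 55.7. Both groups overlapped in both genes. Ddit3 (chr10:127290774-127296288, plus strand), the CHOP gene, had the lowest mean percentile of the set, 20.5, with fold enrichments of 7.95, 9.48 and 9.61 in Ctrl and 8.37, 8.26, 9.51 and 9.61 in WTAkita. Ppp1r15a (GADD34, the phosphatase subunit that reverses eIF2α phosphorylation; chr7:45522916-45526268, minus strand) followed at 21.6, with 8.85, 9.30 and 9.51 in Ctrl and 9.02, 8.55, 9.86 and 8.96 in WTAkita, and it lay below Ddit3 in Ctrl 2, Ctrl 3 and WTAkita 4. Its constitutive relative Ppp1r15b stood at a mean percentile of 62.6.

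At the upper end, Edem2, Pdia6 and Sel1l ranked highest. Pdia6 (chr12:17266545-17284770, plus strand) had 21.1, 22.8 and 22.4 in Ctrl and 21.2, 22.7, 22.8 and 25.6 in WTAkita, a mean percentile of 90. Sel1l, the adaptor of the degradation ligase (chr12:91806043-91849157, minus strand), had 22.0, 24.1 and 22.3 in Ctrl and 19.8, 22.4, 22.3 and 22.2 in WTAkita, a mean percentile of 88.6. Edem2, a mannosidase-like protein that marks glycoproteins for degradation (chr2:155701677-155729475, minus strand), had 22.2, 24.4 and 22.7 in Ctrl and 20.4, 20.1, 24.5 and 25.4 in WTAkita, a mean percentile of 90.5. That value belongs to an annotated transcript start inside the gene, with the summit 18758 to 18781 bases from the gene's 5′ end; at the 5′ end alone Edem2 had a fold enrichment of 15.2 to 16 and a mean percentile of 61.0. Neighbors in the order of the 37 genes were not separated: in 0 of 36 neighboring pairs did the higher gene's lowest percentile exceed the lower gene's highest.

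Rank by fold enrichment and rank by tags were different things for several members. Ranked by the highest summit pileup per 1000000 tags (scaled tags) instead, the median of the 37 mean percentiles was 93.6, 25 of 37 genes lay above the 90th percentile and 3 lay below the 50th. Ddit3 is the clearest case. Its pileup was 9.06, 12 and 12.9 scaled tags in Ctrl and 8.21, 9.09, 12.8 and 13 in WTAkita, a mean percentile of 91.3 against 20.5 by fold enrichment. The local background that MACS2 set under its summit was 14.9 times the genome-wide background on average (12 to 16.6). Ppp1r15a (74.7 by pileup, background ratio 10.6) and the disulfide isomerase P4hb (92.7 by pileup, 36.6 by fold enrichment, ratio 11.4) were alike in this. So was the sensor Ern1 (80.5 by pileup, 39.4 by fold enrichment, ratio 8.44). A low fold enrichment at these promoters thus went with many tags over a high local background, and not with few tags. Such a ratio was not particular to them. It was 9.84 in Hspa5, 9.04 in Creld2 and 11.5 in Manf, which stood at 66.5, 83.9 and 51.7 by fold enrichment. The local background came from the same library's tags, those of the peak included.

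The opposite held for the amino acid response genes Asns and Chac1. Asns had a pileup of 4.37, 4.33 and 5.50 scaled tags in Ctrl and 3.20, 3.44, 5.09 and 5.25 in WTAkita, a mean percentile of 41.5 against 81.9 by fold enrichment. Chac1 had 3.79, 3.25 and 4.28 in Ctrl and 2.72, 2.69, 4.35 and 4.42 in WTAkita, 34.2 against 78.4. Their background ratios were 2.44 and 2.04. In Trib3, with 58.0 by pileup and 53.2 by fold enrichment, the ranks lay closer together. Hspa5, by contrast, was high on both scales (98.5 and 66.5), with 11 to 15.9 scaled tags, as were Creld2 (99.6 and 83.9) and Dnajc3 (98.6 and 85.7).

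**Figure D3:**
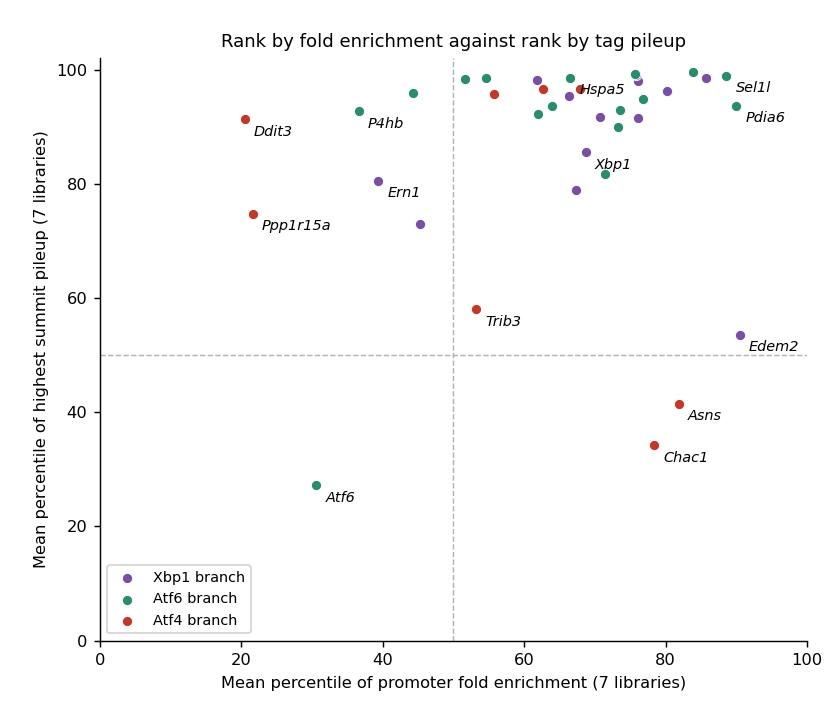
Each point is a gene, placed by its mean percentile over 7 libraries by promoter fold enrichment (x axis) and by highest summit pileup (y axis), and colored by branch. Ddit3 stands at 20.5 and 91.3 and Chac1 at 78.4 and 34.2, while most genes fill the upper right.

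The question of the design is whether exposure to maternal diabetes leaves a difference at these promoters in adult LSK cells. Values were quantile-normalized on the log2 scale and compared with limma over all 15808 promoters. None of the 37 promoters differed after Benjamini-Hochberg adjustment (smallest adjusted p = 0.999), against 0.0127% of all promoters tested. None reached an unadjusted p under 0.05 (3.95% of all promoters), and in none did the groups separate, higher in WTAkita (2.7% of all) or lower (1.98%). With WTAkita 3 left out, 1 of the 37 had an unadjusted p under 0.05 by limma, beside 694 of 15820 promoters, and 0 passed adjustment. The differences, WTAkita minus Ctrl, ran from -0.08 to 0.10 on the log2 scale, with standard errors of 0.049 to 0.09. The 95% intervals of all members stayed between -0.27 and 0.27.

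Of the members 26 lay above 0 and 11 below, with a median of 0.020, against 53.2% of all promoters above 0 and a median of 0.0060. That split followed the libraries used. Without WTAkita 1, the library of lowest enrichment, 12 lay above 0 and 25 below, and without all 3 of the libraries named above as lowest in enrichment 16 lay above and 21 below. With no normalization 6 lay above and 31 below, while the median over all promoters was itself -0.040. By summit pileup 19 lay above and 18 below. With no normalization of the pileup 0 lay above and 37 below, with a median of -0.14 against -0.13 over all promoters. Quantile normalization gives every library the same distribution of values, so the main fit cannot show a shift shared by most promoters. Whether such a shift was present was not tested. No direction can be given for the set.

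Pdia6 had the largest moderated t of the set, 2.05. Its normalized log2 values were 4.45, 4.44 and 4.43 in Ctrl and 4.57, 4.59, 4.44 and 4.58 in WTAkita, a difference of 0.10 ± 0.051 (SE). In 3 of 4 WTAkita libraries it was above every Ctrl library, and WTAkita 3 lay within them. Dnajb9, a cochaperone that binds Ern1, followed with 4.22, 4.07 and 4.07 in Ctrl and 4.32, 4.20, 4.19 and 4.06 in WTAkita (difference 0.08 ± 0.069, SE). Sec61b, a subunit of the translocation channel, had 4.12, 4.09 and 4.02 in Ctrl and 4.16, 4.16, 4.12 and 4.08 in WTAkita (0.06 ± 0.052, SE). The adjusted p of limma was 0.999 for each of these genes.

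At the other end, Asns had normalized log2 values of 4.39, 4.28 and 4.51 in Ctrl and 4.12, 4.31, 4.33 and 4.49 in WTAkita, a difference of -0.08 ± 0.083 (SE), which was -0.017 without WTAkita 1, -0.024 without Ctrl 3 and -0.14 without Ctrl 2 or WTAkita 4. Dnajc3, which inhibits the kinase Eif2ak3, had 4.41, 4.51 and 4.37 in Ctrl and 4.40, 4.40, 4.38 and 4.38 in WTAkita (-0.04 ± 0.049, SE). Chac1 had 4.33, 4.18 and 4.43 in Ctrl and 4.19, 4.16, 4.30 and 4.38 in WTAkita (-0.06 ± 0.074, SE). The groups overlapped in each, and the adjusted p of limma was 0.999. For the sensors and factors Ern1, Xbp1, Atf6, Eif2ak3, Atf4 and Ddit3 the differences were likewise under 0.1 in size, and their 95% intervals ran from -0.17 at the lowest to 0.24 at the highest.

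**Figure D4:**
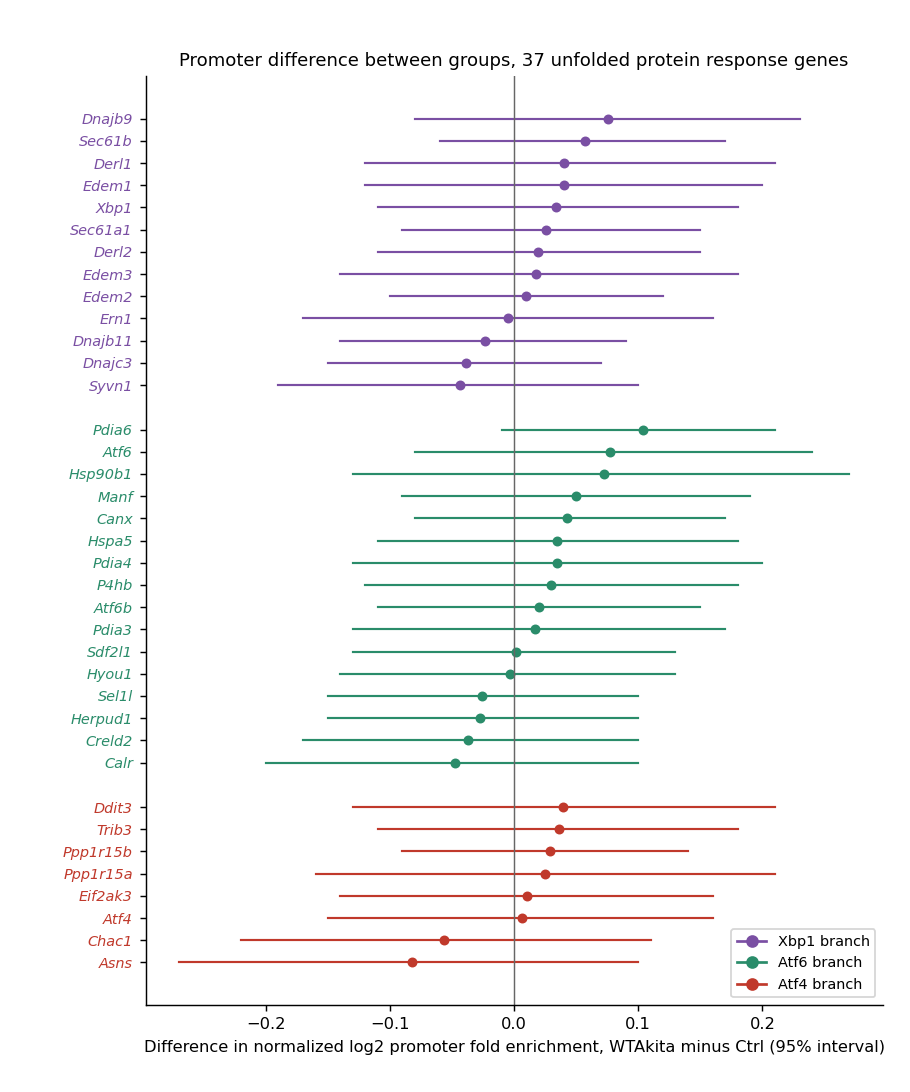
Points are the difference in normalized log2 promoter fold enrichment, WTAkita minus Ctrl, for each gene, and lines are 95% intervals from limma, grouped and colored by branch. Every interval spans 0, from Asns at -0.08 to Pdia6 at 0.10.

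Accessible regions within the genes, more than 1000 bp from any of their own starts, were examined as candidate internal elements. A region was kept where peaks of all 3 Ctrl or at least 3 of 4 WTAkita libraries covered it, which gave 138969 regions genome-wide and 59 in the members. They lay in 17 of the 37 genes, and 20 genes had none. Of the 59, 43 lay in introns, 11 touched a coding exon, 4 a UTR and 1 a noncoding exon. The sensors held 30 of them: Ern1 had 14, Atf6 had 10 and Eif2ak3 had 6. Edem3 had 6 and Manf 5, of which 2 were near the start of Rbm15b. These 5 genes are the longest of the set, at 93.2, 163, 60.7, 66.7 and 53.7 kb. Regions are not all independent. In Edem3, chr1:151800294-151801314 and chr1:151800995-151801823 overlap and had the same values in Ctrl 1, Ctrl 3, WTAkita 1 and WTAkita 4. Hspa5, Xbp1, Atf4, Ddit3, Calr and Asns had none, in genes of 2.36 to 18.1 kb.

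No internal region was present in every library of a group and absent from the other. Of the 59, 46 had a value in all 7 libraries and were tested among 111613 such regions. None passed adjustment (smallest adjusted p = 1.0 by limma, against 0% of all regions), and 3 had an unadjusted p under 0.05 (3.73% of all). The groups did not overlap in 1 region higher in WTAkita (2.52% of all) and in 2 lower (2.19%). In 27 of 46 the difference was above 0 (52.5% of all regions). Set against those shares, 1 or 2 regions of 46 are not a result about these genes.

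The strongest internal region of the Atf6 branch lay in Pdia4, a disulfide isomerase, over a coding exon 14160 bases from the gene's 5′ end (chr6:47799051-47799489), at the 98.0th percentile of regions. The Ctrl libraries had fold enrichments of 26.4, 31.4 and 27.5 there and the WTAkita libraries 19.4, 22.1, 23.7 and 26.5. On the normalized log2 scale it read 4.79, 4.86 and 4.71 in Ctrl and 4.52, 4.58, 4.47 and 4.59 in WTAkita, so that all WTAkita libraries lay below all Ctrl libraries. The difference was -0.25 ± 0.064 (SE; 95% interval -0.39 to -0.11), with an unadjusted p of 0.0024 and an adjusted p of 1.0 by limma. It had the most negative t of the 46 regions and is given here as a value that did not pass the test.

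In Ern1 the strongest region was intronic, 59506 bases from the 5′ end (chr11:106427981-106428710), at the 97.5th percentile. Fold enrichments of 23.7, 26.3 and 25.5 in Ctrl stood beside 20.1, 21.9, 24.5 and 25.4 in WTAkita. After normalization the Ctrl values were 4.64, 4.60 and 4.60 and the WTAkita values 4.57, 4.56, 4.52 and 4.53, lower without overlap but by only 0.07 ± 0.059 (SE). A weaker Ern1 intron region (chr11:106464697-106465019) went the other way, at 1.92, 1.87 and 1.99 in Ctrl and 2.01, 2.05, 2.23 and 2.32 in WTAkita, a difference of 0.23 ± 0.15 (SE). Within a single gene, then, the values moved both ways, and neither passed the test.

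Eif2ak3 held the strongest internal region of the Atf4 branch, in an intron 36550 bases from its 5′ end (chr6:70880805-70881325, 94.3rd percentile). The Ctrl libraries had 19.4, 29.4 and 22.9 there and the WTAkita libraries 13.3, 19.2, 23.3 and 24.6, and the normalized log2 difference was -0.20 ± 0.12 (SE) with overlapping groups. It was -0.072 without Ctrl 2 and -0.086 without WTAkita 1. A second intronic region of Eif2ak3 (chr6:70875230-70875629) had 4.76, 4.45 and 7.22 in Ctrl and 3.03, 3.61, 4.24 and 4.57 in WTAkita. Its difference was -0.45 ± 0.19 (SE), with an unadjusted p of 0.0356 and an adjusted p of 1.0 by limma. Without Ctrl 3 the difference was -0.25 and the unadjusted p 0.203.

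The largest positive t belonged to a UTR region of Edem3, a mannosidase of glycoprotein degradation (chr1:151820472-151820823). It had 6, 8.52 and 6.22 in Ctrl and 6.45, 6.84, 10.1 and 10.5 in WTAkita, a difference of 0.34 ± 0.15 (SE), with an unadjusted p of 0.0414 and an adjusted p of 1.0 by limma. Next came 2 Atf6 intron regions. That at chr1:170833244-170833790 had 6.83, 8.32 and 6.97 in Ctrl and 5.45, 8.55, 10.6 and 11.3 in WTAkita (0.30 ± 0.16, SE). That at chr1:170844385-170844764 had 5.43, 7.84 and 8.14 in Ctrl and 6.72, 8.66, 10.1 and 7.70 in WTAkita (0.29 ± 0.16, SE). In both the groups overlapped.

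**Figure D5:**
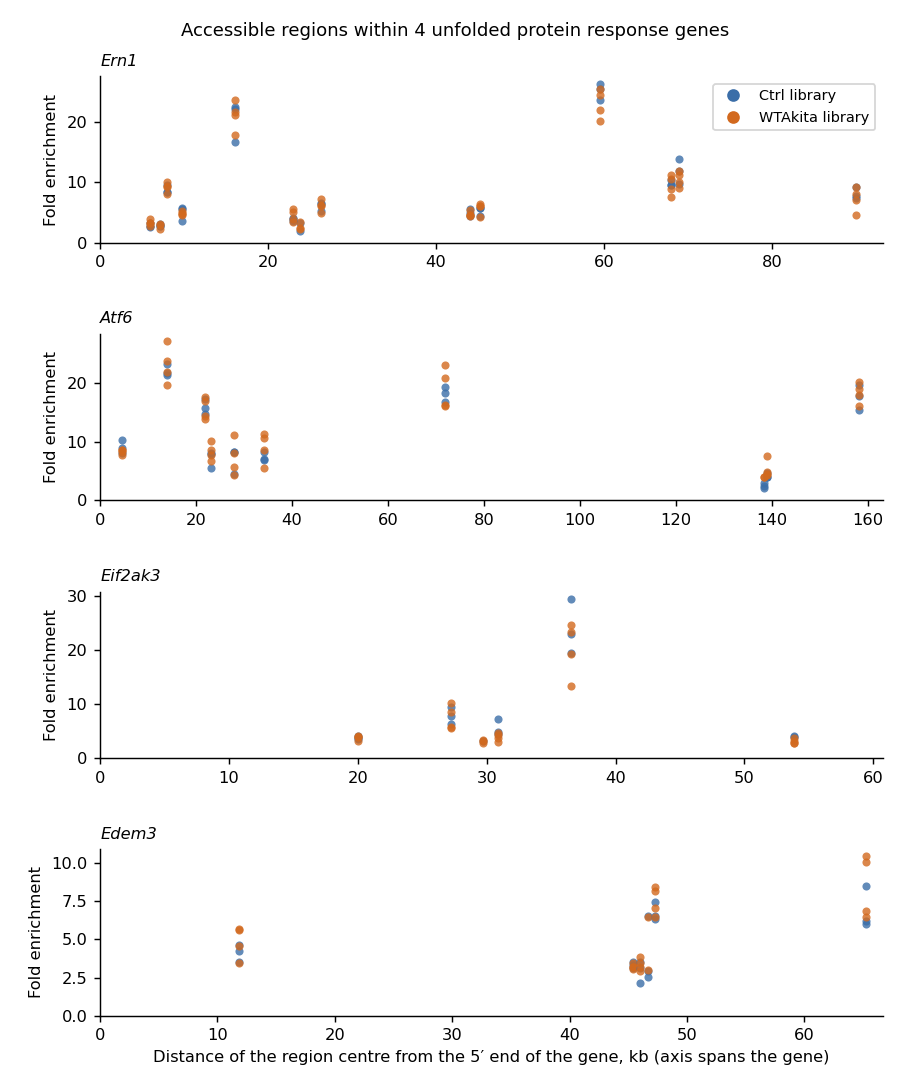
Fold enrichment (y axis) of each accessible region inside Ern1, Atf6, Eif2ak3 and Edem3 against the distance of its center from the gene's 5′ end in kb (x axis, spanning the gene), with a point per library in which a peak gave it a value, Ctrl in blue and WTAkita in orange. The highest points are 26.3 in Ern1, 27.1 in Atf6 and 29.4 in Eif2ak3, and the colors mix at nearly every position.

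The rest of the pathway was covered by 94 further genes in 5 groups. All 94 had a promoter peak in all 7 libraries, with a median percentile of 66.2, beside 67.9 for the 37 genes above. None passed adjustment, 3 had an unadjusted p under 0.05 (3.95% of all promoters), and 4 were higher in WTAkita without overlap (2.7% of all) and 1 was lower (1.98%). Of the 94, 51 lay above 0 (53.2% of all promoters) and 43 below, with a median difference of 0.0070. These counts are near the shares over all promoters. Of 21 activation and signaling genes 11 lay above 0, from Atf3 at -0.19 ± 0.09 (SE) to Bax at 0.20 ± 0.11. Of 17 genes of endoplasmic reticulum-associated degradation 8 lay above 0, from Selenos at -0.05 ± 0.05 to Faf2 at 0.09 ± 0.085. In both groups the signs were thus nearly balanced. Of 14 translocation and signal peptide genes 7 lay above 0, from Ssr4 at -0.10 ± 0.053 to Ssr2 at 0.22 ± 0.067. Of 23 folding and glycosylation genes 11 lay above 0, from Ero1l at -0.08 ± 0.055 to Erp44 at 0.06 ± 0.073. Here too neither sign prevailed. Of 19 amino acid response genes 14 lay above 0, from Vldlr at -0.14 ± 0.11 to Nars at 0.07 ± 0.05. Their median difference was 0.028, and 0 of the 19 had an unadjusted p under 0.05 by limma. Whether this split held with libraries left out was not tested. Ssr2, a subunit of the translocon-associated complex, had fold enrichments of 13.3, 15.4 and 13.5 in Ctrl and 13.2, 15, 17.8 and 18.0 in WTAkita. These overlap, but after normalization the groups did not, with an unadjusted p of 0.00719 by limma. Sec63 was also higher without overlap, by 0.20 ± 0.06 (SE), with an unadjusted p of 0.00671 by limma. Ssr4 was the gene lower without overlap. The adjusted p was 0.999 by limma for each of these 3 genes.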

How the data were processed

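The deposited files are 7 MACS2 peak lists, 1 per library, called by the authors on single libraries without an input control. Per the submitters' processing notes, the tools were Bowtie2 2.3.4.1 for alignment to mm10, MACS2 2.1.4 for peaks, and Trim Galore 0.4.2 on cutadapt 1.9.1 for trimming. Each line gives the authors' fold ratio at a summit, the −log10 p-value and −log10 q-value, and a deposited score that was not used. The lists hold no reads, so tag pileups were solved from the ratio and the p-value (whole numbers within 0.02 for at least 99.996% of lines) and total tags were estimated from the background level.

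From these lists, the promoter value of a gene was the highest fold enrichment among peaks within 1000 bp of any GENCODE transcript start. Genes sharing a start window share that peak. An internal region took its value from a peak only where the overlap reached 50% of whichever was shorter. Log2 values were quantile-normalized and compared with limma 3.58.1 (R 4.3.3, trended prior), with Benjamini-Hochberg adjustment over all promoters or regions called in all 7 libraries and a threshold of 0.05. The fit was tested on simulated data with independent noise and added changes larger than any member difference. That run does not bear on changes as small as those of the members. Tables were joined with pandas 2.3.3 and bedtools 2.31.1. Promoter sequences are RefSeq's (GRCm38, the sequence of mm10), and other sequences were read from that genome.

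The members and gene lists were chosen with earlier results of these data known. Values are given for the sensors and factors, the 3 highest and 3 lowest ranks, and the 3 largest and smallest t of promoters and regions. They are also given for the strongest region of each branch, the regions whose groups do not overlap, and the extremes of each further gene group. Genes chosen otherwise, P4hb, Trib3, Ppp1r15b, Hspa5, Creld2, Sec63 and those with motifs, were named after their values were seen. Alternatives covered the start window, peak threshold, normalization, peak value, test, replicate block and libraries left out.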

Additional observations from a re-analysis of the deposited data

Results flagged for a closer look

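In the WTAkita group, 83 sets of 4 values (37 promoters and 46 internal regions, normalized log2 scale) were searched for a library far from the other 3, using Dixon's 95% criterion for the gap to the nearest value over the range. It was met by 4 sets (4.82%), and chance alone gives about 1 in 20. The Pdia6 promoter was low in WTAkita 3, at 4.44 against 4.57 to 4.59 in the others and 4.43 to 4.45 in Ctrl (gap over range 0.843). The P4hb promoter was high in WTAkita 1, at 3.71 against 3.56 to 3.57 and 3.54 to 3.63 in Ctrl (0.934). The Edem3 promoter was high in the same library, at 4.15 against 3.98 to 4.0 and 3.91 to 4.17 in Ctrl (0.919). The Derl1 region over a coding exon (chr15:57878049-57878776) was low there, at 3.56 against 3.73 to 3.77 and 3.63 to 4.16 in Ctrl (0.84). WTAkita 1 is the library of lowest median fold enrichment, and its part in these values was not tested. Groups of 3 were not searched.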

How the results depend on the processing

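Under every alternative run, 0 of the 37 promoters and 0 of the internal regions of these genes passed adjustment, and in the 13 alternatives of windows, peak thresholds and left-out libraries 37 of 37 promoters kept a peak in all libraries used. Over all promoters, 1 was higher and 1 lower in WTAkita. With a 500 bp window, the 5′ end only or the summit within 1000 bp these counts were 0 and 0, and without the 3 libraries of lowest enrichment, an alternative chosen after seeing the data, 3 were higher. The lower count was 4 with summit pileup and median centring and 7 with no normalization of the pileup, both also added later. Leaving out 1 library at a time gave 1 higher throughout and 1 to 13 lower (3 without Ctrl 2, 13 without WTAkita 4). Over all regions, 0 and 0 became 2 and 2 with any overlap and 6 and 16 without the 3 libraries of lowest enrichment. Leaving out 1 library gave 0 higher and 0 to 28 lower (13, 28 and 10 without Ctrl 1, 2 or 3, and 4 without WTAkita 4). The cause was not tested. With the replicate block, 1 promoter was higher and 11 lower. Promoters with an unadjusted p under 0.05 by limma numbered 1082 with the block and 625 without it. Over promoters, same-numbered libraries correlated at 0.267, 0.0188 and 0.102 in their deviations from the group means. Differently numbered libraries ran from -0.21 to 0.119. Not every library correlated best with its own number, and the labels do not say whether numbers mark pairs. Pairing is therefore unresolved, and the main fit used no block.

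The median member percentile of 67.9 became 93.6 by summit pileup and 92.1 by −log10 p. Of 277 values of 14 named differences under the alternatives, 266 kept their direction and 11 turned. Without the 3 libraries of lowest enrichment Asns read 0.015 and Chac1 0.036. Over single left-out libraries Dnajc3 ran from -0.069 to 0.0025 (without Ctrl 2) and Chac1 from -0.13 (without Ctrl 2) to 0.0032 (without Ctrl 3). Dnajb9 read 0.032 without WTAkita 1 and 0.13 without Ctrl 1, Sec61b 0.03 without Ctrl 3, and the Atf6 region of 0.29 read 0.18 without Ctrl 1. By summit pileup Chac1 read 0.005 and Sec61b -0.011, with median centring 0.0094 and -0.014, and with no normalization Sec61b read -0.15, Dnajb9 -0.083 and Pdia6 -0.07.

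Peak lists hold no value where no peak was called, so regions without a peak in every library could not be tested, and a fold enrichment shrinks where the local background is high. Whether sequencing depth limits the promoter values was not tested. With 3 against 4 libraries, the standard errors of the members' differences were 0.049 to 0.09.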

Other observations

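Several of these promoters are shared with a neighboring gene. In 7 of the 37 genes another protein-coding gene started within 1000 bp of the 5′ end: Alg12 beside Creld2, Tbccd1 beside Dnajb11, Catsper2 beside Pdia3, Plekha4 beside Ppp1r15a, Mis12 beside Derl2, Ttc41 beside Hsp90b1 and Alg2 beside Sec61b. A promoter peak there cannot be assigned to either gene.

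In base composition, the 301 bp around the promoter summits held a median of 26.1 CpG sites in the 37 genes, against 21.7 over all 15808 genes with a promoter peak in every library. The median GC content was 64.6% against 62.5%. The Atf6 branch had a median of 26.9 CpG sites, the Atf4 branch 24.4 and the Xbp1 branch 23.6. Edem2 at its internal start had the fewest, 7.0, followed by Atf6, Syvn1 and Eif2ak3 at 14.3 each, and Pdia3 had the most, 37.4. The Atf6 window lay at the summit 826 to 848 bases upstream of its 5′ end in all libraries but WTAkita 3. Promoter peaks of the 37 genes had median widths of 534 bp (Atf6, mostly that upstream peak) to 1910 bp (Xbp1).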
